A study of Mus musculus with 2 samples.

Results

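The genes described here are 8 components of the machinery by which a cell recognises and engulfs dying cells and photoreceptor debris. They are the bridging ligands *Gas6*, *Pros1* and *Mfge8*, the receptor tyrosine kinases *Tyro3*, *Axl* and *Mertk* (the TAM receptors), and the integrin subunits *Itgav* and *Itgb5*. They were chosen as a list of names, with earlier results of these data known, and all 8 were found among the 31053 genes counted. A dying cell exposes phosphatidylserine on its surface. GAS6 and protein S, the product of *Pros1*, bind it through a domain that needs vitamin K-dependent carboxylation and bind a TAM receptor at their other end, while MFGE8 binds it and the integrin made of the alpha v and beta 5 subunits. In the mature eye the retinal pigment epithelium (RPE) uses MERTK and this integrin to take up shed photoreceptor outer segments, and loss of MERTK causes retinal degeneration. At the embryonic age studied here there are no outer segments, and macrophages are the best known users of the same genes.

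The data were single cell RNA counts of mouse eye cups at embryonic day e13.5, in 2 libraries with 1 library per genotype. The control library held 3 pooled samples of *Myrf* fl/fl eye cups, in which both *Myrf* alleles are floxed and no Cre is named, and the mutant library held 3 pooled *Rx>cre Myrf* fl/fl samples. *Myrf* encodes a membrane-bound transcription factor, and the Cre transgene under *Rx* acts in the early eye field, from which the retina and the RPE both arise, so that deletion is not restricted to the RPE. After filtering, 5468 control and 6300 mutant cells were kept, with medians of 11332 and 11154 unique molecular identifiers (UMIs, each standing for 1 captured transcript) per cell. The 2 libraries shared 72 cell barcodes. The cells fell into 29 clusters, of which 26 could be named from marker genes and were gathered into 14 classes, and 628 control and 489 mutant cells stayed unnamed. With 1 library per genotype there is no replicate spread, so no test was made. All intervals are at the 95% level and cover counting error only, not the difference between embryos, and the depth of a class sets their width.

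The RPE-like class held 257 control and 151 mutant cells, a single cluster led by *Ttr*, *Pmel*, *Trpm1*, *Mlana* and *Rlbp1*. Of 10 RPE markers 8 were counted in both libraries, and *Rgr* and *Rpe65* were at 0 in both. The summed marker level was 13567 UMIs per 1000000 UMIs of the class (CPM) in the control and 9557 CPM in the mutant library. The RPE-like class had 155 *Myrf* UMIs in the control library but 30 in the mutant one, which gives -1.85 (-2.51 to -1.32) as the log2 ratio of mutant over control. A tag from the 3′ end can lie outside the deleted part of a gene, so the remaining UMIs do not measure incomplete deletion. The RPE-like cells were shallow, with medians of 3371 and 4260 UMIs, against 22476.5 and 22723.5 in red blood cell-like cells, which served as the class that should lack these genes.

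*Gas6*, *Mfge8* and *Itgb5* supplied most of the UMIs of the group in the RPE-like cells, and their RefSeq promoters (250 bases before and 50 after the start of the gene, build GRCm38.p6) are shown for that reason. They lie at chr8:13494486-13494785 on the minus strand for *Gas6*, chr7:79149011-79149310 on the minus strand for *Mfge8* and chr16:33829415-33829714 on the plus strand for *Itgb5*. Capitals mark the GC box, GGGCGG on either strand, a site bound by factors of the SP family.
Gas6: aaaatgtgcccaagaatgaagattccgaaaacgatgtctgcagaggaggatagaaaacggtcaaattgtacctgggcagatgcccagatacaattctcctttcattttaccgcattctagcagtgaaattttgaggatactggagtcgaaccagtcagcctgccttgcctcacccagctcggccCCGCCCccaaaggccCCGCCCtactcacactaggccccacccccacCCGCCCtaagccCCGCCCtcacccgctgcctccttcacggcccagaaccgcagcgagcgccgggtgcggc
Mfge8: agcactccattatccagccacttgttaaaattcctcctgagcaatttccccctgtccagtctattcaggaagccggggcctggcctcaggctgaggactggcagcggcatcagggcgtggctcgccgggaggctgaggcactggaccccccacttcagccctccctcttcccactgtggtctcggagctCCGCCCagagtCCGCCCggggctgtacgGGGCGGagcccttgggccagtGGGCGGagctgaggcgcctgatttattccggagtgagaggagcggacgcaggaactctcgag
Itgb5: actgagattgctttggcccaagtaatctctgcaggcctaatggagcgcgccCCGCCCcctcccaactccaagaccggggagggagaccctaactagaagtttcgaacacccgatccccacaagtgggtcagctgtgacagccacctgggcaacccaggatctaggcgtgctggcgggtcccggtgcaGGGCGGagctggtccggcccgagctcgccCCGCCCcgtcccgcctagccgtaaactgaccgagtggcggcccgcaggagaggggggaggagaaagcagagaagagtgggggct
The GC box was present in all 8 promoters of the group, against 35.7% of 32851 promoters of the same length. *Gas6* held 4 copies, *Mfge8* 4 and *Itgb5* 3, and the others between 1 in *Itgav* and 6 in *Tyro3*. The promoters held between 6 CpG dinucleotides in *Axl* and 31 in *Tyro3*, and the median over all promoters was 7. Their G and C content ran from 58.3% in *Gas6* to 73.3% in *Tyro3*, against a median of 52.7% over all promoters. The GC box is made of these letters only, and whether its presence goes beyond this content was not tested. The core of the MYRF motif, CTGGCAC or CTGGTAC on either strand, stood in none of the 8 promoters and in 7.096% of all promoters. The E-boxes CACGTG and CATGTG, bound by MITF and its relatives, and TAATCC, the core bound by OTX2, stood in none of the 8 and in 7.15%, 14.2% and 7.06% of all promoters. A match is a description of these letters and not a binding site, and no match in this window says nothing about the factor elsewhere. The genes themselves span 15.3 kb for *Mfge8*, at chr7:79133768-79149060, to 120 kb for *Itgb5*, at chr16:33829665-33949338, in the GENCODE annotation of GRCm38, and *Gas6* lies at chr8:13465374-13494490.

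Among the ligands, *Gas6*, a secreted ligand of all 3 TAM receptors, was higher in mutant RPE-like cells. The paper that reported these data already lists *Gas6* among the genes upregulated in the mutant RPE. Here *Gas6* had 47 UMIs in 257 control cells, 22.6 CPM (16.6 to 30.1), and 87 UMIs in 151 mutant cells, 58.3 CPM (46.7 to 71.9). The counting intervals of the 2 libraries did not overlap, and the log2 ratio was 1.35 (0.84 to 1.91). A UMI was found in 30 of the control cells, 11.7% (8.02 to 16.2), and in 43 of the mutant cells, 28.5% (21.4 to 36.4). More cells with several copies stood beside this: 7 control and 19 mutant cells held 2 or more UMIs, and the highest held 5 and 8. No single cell made the sum, since the highest cell gave 10.6% of the control and 9.20% of the mutant UMIs. In red blood cell-like cells a *Gas6* UMI was found in 0 of 208 control cells and in 1 of 488 mutant cells. By the limit of 3 counts used for a 0, the control cells allow a share of up to 1.44%. The RPE shares stood above those of this class, and the part of free RNA in them was not tested.

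The *Gas6* difference was set against depth, the sex of the embryo and transcripts of other cell types. Thinned to 3000 UMIs, the mean over all draws was 5.34% of 131 control cells (2.17 to 10.7) and 14.3% of 80 mutant cells (7.50 to 24.0), with the 126 and 71 shallower cells left out, and these intervals overlapped. *Xist* and Y-linked transcripts gave the sex of some cells. Female cells had 15 *Gas6* UMIs and 30.8 CPM in the control library, and 13 UMIs and 51.3 CPM in the mutant library. Male cells had 24 UMIs and 25.1 CPM in the control library, and 46 UMIs and 56.5 CPM in the mutant library. Cells with no sex call had 8 UMIs and 12.5 CPM against 28 UMIs and 65.9 CPM. The level was thus higher in the mutant library in all 3 strata, but only 44 control and 15 mutant cells were female, where the log2 ratio was 0.75 and its interval (-0.46 to 1.91) included 0. Macrophage-like cells held far more *Gas6* than RPE-like cells, so their markers were counted in the RPE-like cells. The 9 macrophage markers summed to 27.9 CPM in control and 25.5 CPM in mutant RPE-like cells, against 4346 and 5081 CPM in the macrophage-like cells. *Ptprc*, *Adgre1* and *Cx3cr1* were at 0 in both libraries, while *Csf1r* had 28 and 10 UMIs and *Fcer1g* 18 and 23. In the 220 control and 123 mutant RPE-like cells with no UMI of any of these markers, the log2 ratio of *Gas6* was 1.07 (0.47 to 1.71). They held 40 of the 47 control and 54 of the 87 mutant *Gas6* UMIs. The cells with a marker UMI thus held a larger part of the *Gas6* UMIs in the mutant library. *C1qa*, *C1qb* and *C1qc* led the macrophage-like cluster. In all RPE-like cells they had 1, 2 and 2 control UMIs, and 0 mutant UMIs each. The part of macrophage transcripts in the *Gas6* ratio was not tested.

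Markers of other classes also differed between the RPE-like cells of the 2 libraries. The log2 ratio of the summed markers was -0.49 (-0.56 to -0.42) for surface ectoderm and -0.41 (-0.52 to -0.30) for retinal progenitors. It was -0.46 (-0.90 to -0.05) for optic stalk and 0.31 (0.07 to 0.54) for pericytes. Photoreceptor precursor markers gave -0.34 (-0.51 to -0.17) and melanocyte markers -0.36 (-0.40 to -0.33). Both of the latter lists share genes with that of the RPE. The 7 neurogenic precursor markers summed to 263 CPM in the control and 526 CPM in the mutant library, a log2 ratio of 1.00 (0.84 to 1.16). *Atoh7*, a proneural transcription factor, gave 246 and 535 of these UMIs, and *Neurog2* 5 and 36. The rise was not shared by the set. *Hes6* had 224 and 143 UMIs, -0.17 (-0.48 to 0.14), and *Gadd45a*, *Dll1*, *Dll3* and *Insm1* had intervals that included 0. The 8 ganglion cell markers summed to 141 and 31.5 CPM, a log2 ratio of -2.14 (-2.64 to -1.71). *Stmn2* gave 144 and 15 of these UMIs, and *Isl1*, *Sncg*, *Gap43* and *Elavl4* also had intervals below 0. The intervals of *Pou4f2* (3 and 2 UMIs), *Pou4f1* (2 and 1) and *Ebf3* (10 and 4) included 0. The 9 red blood cell markers summed to 978 and 1377 CPM, a log2 ratio of 0.49 (0.41 to 0.58). The single genes of this sum went in both directions. *Hbb-y* had 805 and 1003 UMIs, 0.80 (0.66 to 0.93), and *Hba-x* 124 and 189 UMIs, 1.08 (0.75 to 1.43). *Hba-a1* and *Hba-a2* were also higher in the mutant library, with intervals above 0. *Hbb-bs* was lower, with 327 and 144 UMIs, -0.70 (-0.998 to -0.42), and the interval of *Hbb-bt* included 0. *Gas6* itself was low in neurogenic precursor-like cells, at 0.786 CPM in the control and 0.663 CPM in the mutant library. It was at 0 and 0.0975 CPM in red blood cell-like cells, and at 5.52 and 1.19 CPM in retinal ganglion cell-like cells. Beyond these levels, the part of such transcripts in the ratios of the RPE-like cells was not tested.

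The other ligands did not pass the fold in the RPE-like cells. *Mfge8*, the bridge to the integrin, had 189 UMIs in the control, 90.9 CPM (78.4 to 105), and 109 in the mutant library, 73.0 CPM (60.0 to 88.1), a log2 ratio of -0.31 whose interval (-0.67 to 0.03) just included 0. It was counted in 36.2% of the control cells and 38.4% of the mutant ones, against 2.88% and 2.25% of red blood cell-like cells. *Pros1*, the alternative TAM ligand, had 4 control UMIs and 3 mutant UMIs. Its log2 ratio of 0.16 had an interval of -2.71 to 2.63, which holds the ratio of *Gas6*. Among RPE-like cells, 1.56% (0.43 to 3.94) of the control and 1.99% (0.41 to 5.70) of the mutant library held *Pros1*, against 0 of 208 control and 2.25% of mutant red blood cell-like cells (1.13 to 3.997). In both libraries these intervals overlapped the range that the red blood cell-like cells allow.

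The TAM receptors were sparse in RPE-like cells of both genotypes. *Tyro3* had 18 control and 15 mutant UMIs, 8.65 CPM (5.13 to 13.7) and 10.0 CPM (5.62 to 16.6), a log2 ratio of 0.23 (-0.88 to 1.29). *Axl* had 16 and 15 UMIs, 7.69 CPM (4.40 to 12.5) and 10.0 CPM (5.62 to 16.6), a log2 ratio of 0.39 (-0.73 to 1.5). *Mertk*, the receptor on which outer segment uptake depends later in life, had 5 and 4 UMIs, 2.40 CPM (0.78 to 5.61) and 2.68 CPM (0.73 to 6.86). The intervals of all 3 receptors were wide enough to hold a change of 1.5 times in either direction, so no difference was detectable at this depth, which is not evidence of equal levels. A UMI of any TAM receptor was found in 13.2% of the RPE-like cells of the control library (9.34 to 18) and 17.9% of those of the mutant library (12.1 to 24.9). A UMI of either TAM ligand was found in 13.2% (9.34 to 18) and 29.8% (22.6 to 37.8), and 43 of the 45 mutant cells with a TAM ligand held *Gas6*.

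Of the integrin subunits, *Itgb5* had 111 UMIs in control RPE-like cells, 53.4 CPM (43.9 to 64.3), and 55 in mutant ones, 36.8 CPM (27.8 to 48.0). The log2 ratio was -0.52 and its interval (-1.03 to -0.06) excluded 0, but the size was below 1.5-fold, and it did not hold in both sexes: male cells gave -1.10 (-1.92 to -0.41) and female cells 0.30 (-0.77 to 1.25). The share of cells with an *Itgb5* UMI was 26.8% for control and 24.5% for mutant RPE-like cells, and 13.7% and 9.65% after thinning. *Itgav*, the partner subunit, had 29 and 18 UMIs, 13.9 CPM (9.34 to 20.03) and 12.1 CPM (7.15 to 19.1), a log2 ratio of -0.18 (-1.14 to 0.69). Both subunits were counted together in 10 of the 257 control cells and 6 of the 151 mutant cells.

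**Figure D1:**
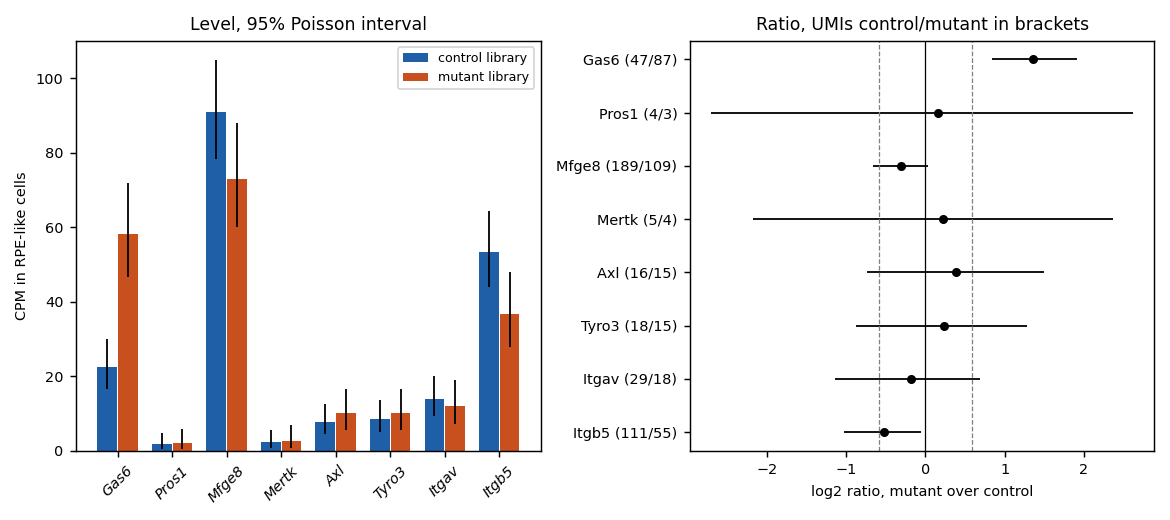
Levels of the 8 genes in RPE-like cells (left, CPM with 95% Poisson interval, blue control and orange mutant library) and the log2 ratio of mutant over control with its 95% interval (right, UMIs of both libraries in brackets, dashed lines at 1.5-fold). *Gas6* lies at 1.35 with its whole interval beyond the upper line, and *Itgb5* is the only other gene whose interval, -1.03 to -0.06, excludes 0.

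**Figure D2:**
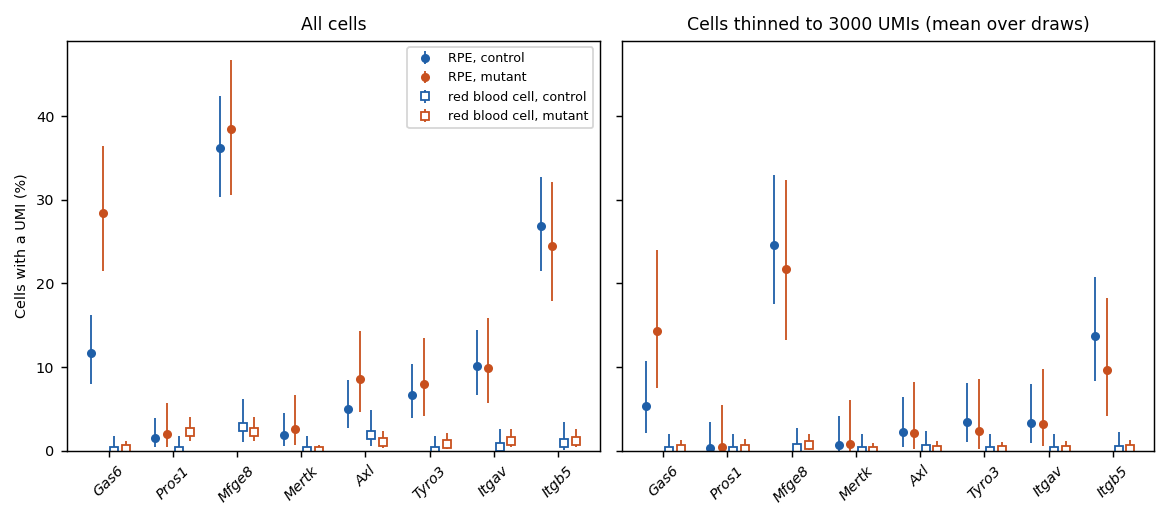
Percentage of RPE-like cells (filled circles) and red blood cell-like cells (open squares) with a UMI of each gene in the control (blue) and mutant (orange) library, over all cells and as the mean over draws after thinning to 3000 UMIs, with 95% binomial intervals. *Gas6* stands at 11.7% and 28.5% before and 5.34% and 14.3% after thinning, and *Pros1* and *Mertk* stay near the squares.

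A gene was counted as past the fold where it had 10 or more UMIs over both libraries in a class, a ratio of at least 1.5 times and an interval that excluded 0. In RPE-like cells 6 of the 8 genes had enough UMIs, 1 passed upward and 0 downward. Over the 11206 genes with as many UMIs in these cells, 7.96% passed in either direction, 2.97% upward and 4.99% downward, with a median log2 ratio of -0.03, and the median of the 6 genes was 0.03. Across all 14 classes 69 of 112 pairs of gene and class had enough UMIs and 7 passed, 3 upward and 4 downward, and over all genes 7400 of 138043 such pairs passed, 5.36%.

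Outside the RPE the changes were scattered over genes and classes. In retinal progenitor-like cells, which descend from the same Cre-expressing field, *Itgb5* was lower, with 129 UMIs and 6.66 CPM in the control and 82 UMIs and 4.29 CPM in the mutant library, a log2 ratio of -0.63 (-1.05 to -0.23) that turned to 0.17 with the upper limit of 2000 UMIs per cell. It was the 1 of 8 genes to pass in a class where 2.62% of all genes did. *Tyro3* fell in neurogenic precursor-like cells from 16 to 5 UMIs, a log2 ratio of -1.75 (-3.73 to -0.41) that turned to 0.33 in cells of female embryos, and this was 1 of 6 genes against 3.66% of all genes. *Gas6* was lower in retinal ganglion cell-like cells, with 15 UMIs in 15 control cells and 4 UMIs in 3 mutant cells, a log2 ratio of -1.99 (-4.27 to -0.57), as 1 of 5 genes against 3.4% of all genes. This is the opposite direction to the RPE, on a level of 5.52 CPM in the control library. In melanocyte-like cells, which come from the neural crest and not the Cre-expressing field, *Mfge8* had 30 control and 10 mutant UMIs over 43 and 37 cells, a log2 ratio of -1.12 (-2.41 to -0.14), 1 of 4 genes against 4.3% of all genes. With an upper limit of 20000 UMIs per cell this ratio turned to 0.59.

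Macrophage-like cells also lie outside the Cre-expressing field. There *Pros1* had 28 UMIs in 124 control cells and 50 in 137 mutant cells, 15.8 CPM (10.5 to 22.8) and 28.1 CPM (20.9 to 37.1), a log2 ratio of 0.81 (0.14 to 1.56), 1 of 7 genes against 6.96% of all genes. *Pros1* in red blood cell-like cells was at 0 control UMIs and 11 mutant UMIs. The latter gave 1.07 CPM, 1.51-fold the level of the 3 counts used as the limit for a 0, and the interval of the log2 ratio started at 0.05. The log2 ratio of *Pros1* in the red blood cell-like class turned to between -0.28 and -0.10 under both limits on UMIs and in male embryos. That class had a median log2 ratio of 0.36 over all its genes and 16.4% of them past the fold, so 1 of 3 genes there is not set apart from the class. In periocular mesenchyme-like cells, the class with the most UMIs in both libraries, 0 of 8 genes passed against 3.13% of all genes, and the 8 ratios lay between -0.29 for *Itgav* and -0.04 for *Gas6*. No gene passed in endothelial-like cells (6 genes, 4.9% of all genes), Schwann or neural crest-like cells (6 genes, 5.07%), surface ectoderm-like cells (5 genes, 6.11%), amacrine or horizontal cell-like cells (2 genes, 4.41%), muscle-like cells (2 genes, 6.25%) and photoreceptor precursor-like cells (1 gene, 3.91%).

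**Figure D3:**
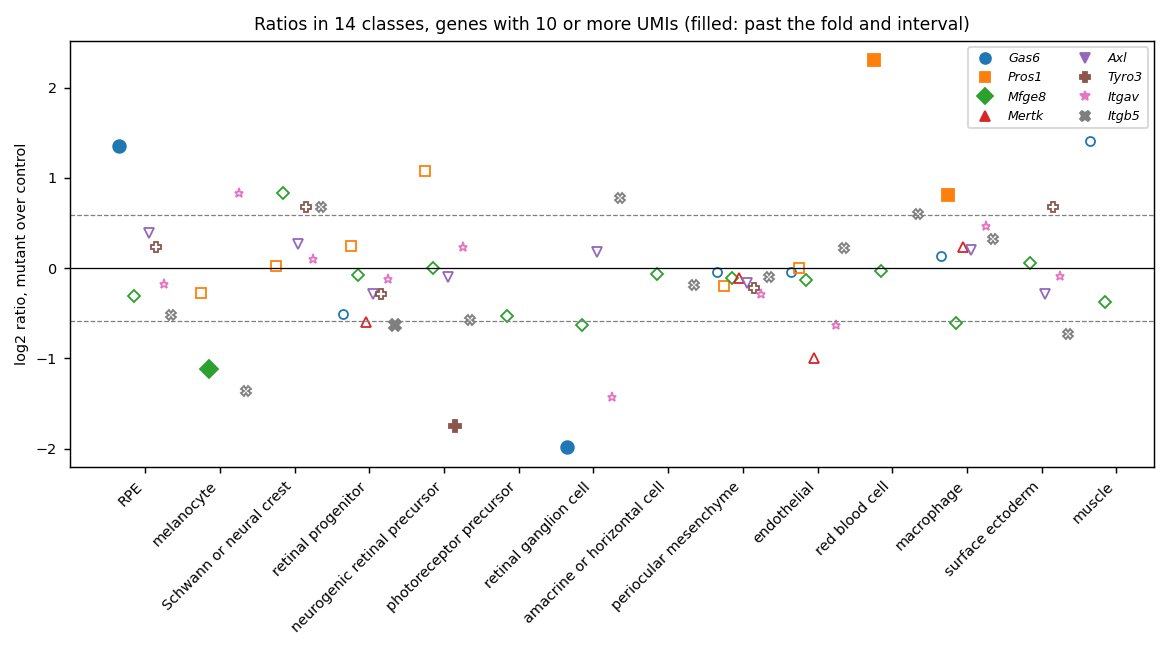
Log2 ratio of mutant over control for each of the 8 genes with 10 or more UMIs in a class, across 14 cell classes, with filled symbols for ratios past 1.5-fold (dashed lines) whose interval excludes 0. Filled symbols are *Gas6* up in RPE (1.35) and down in retinal ganglion cells (-1.99), *Pros1* up in macrophages (0.81) and red blood cells, and single lower values of *Mfge8*, *Itgb5* and *Tyro3*.

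The 8 genes were highest in different cells of the eye, and apart from *Pros1* and *Axl* each had its highest level in the same class in both libraries. *Gas6* was highest in macrophage-like cells, at 169 CPM (151 to 189) in the control and 185 CPM (166 to 206) in the mutant library, which held 64.1% and 62.7% of all *Gas6* UMIs. Next came RPE-like and endothelial-like cells. In the control library these were not separated, at 22.6 CPM (16.6 to 30.1) and 19.4 CPM (13.52 to 27). In the mutant library they were, at 58.3 CPM (46.7 to 71.9) and 18.9 CPM (13.1 to 26.4), and RPE-like cells held 16.6% of the *Gas6* UMIs. The remaining classes stayed at or under 5.52 CPM in the control library, and in the mutant library muscle-like cells reached 11.7 CPM on 8 UMIs.

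*Pros1* followed another pattern, highest in melanocyte-like and Schwann or neural crest-like cells. Melanocyte-like cells had 37.2 CPM (25.4 to 52.5) and 30.2 CPM (18.4 to 46.6), and Schwann or neural crest-like cells 29.7 CPM (13.6 to 56.5) and 31.8 CPM (18.8 to 50.3), intervals that overlapped in both libraries. Macrophage-like cells had 15.8 CPM (10.5 to 22.8) and 28.1 CPM (20.9 to 37.1). These intervals overlapped those of Schwann or neural crest-like cells in both libraries, and that of melanocyte-like cells in the mutant library. Endothelial-like cells followed at 15.5 CPM and 15.6 CPM. The RPE-like cells, at 1.92 CPM (0.52 to 4.92) in the control library, lay far below the melanocyte-like cells although both classes are pigmented. *Mfge8* was highest in surface ectoderm-like cells, at 204 CPM (170 to 242) and 212 CPM (176 to 253), clear of every other class. Endothelial-like cells, at 94.3 CPM (80.6 to 110) and 86.1 CPM (73.1 to 101), and RPE-like cells came next with overlapping intervals. Retinal progenitor-like cells, at 42.0 CPM and 39.9 CPM, and periocular mesenchyme-like cells, at 40.9 CPM and 37.9 CPM, followed as a further pair.

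The 3 TAM receptors differed in their highest classes, and all 3 were counted in periocular mesenchyme-like cells. *Mertk* was found in macrophage-like cells, at 18.6 CPM (12.8 to 26.1) and 21.9 CPM (15.6 to 29.997), and in periocular mesenchyme-like cells, at 11.9 CPM (10.5 to 13.46) and 11.1 CPM (9.84 to 12.4). The mesenchyme is so large a class that it held 77.8% and 81.4% of all *Mertk* UMIs. *Axl* was spread over the periocular mesenchyme-like cells, at 17.2 CPM (15.5 to 19.0) and 15.3 CPM (13.9 to 16.9), macrophage-like cells, at 14.7 CPM and 16.9 CPM, and surface ectoderm-like cells, with no gap between neighbouring intervals. *Tyro3* was highest in surface ectoderm-like cells, at 17.1 CPM (8.54 to 30.6) and 28.0 CPM (16 to 45.5) on 11 and 16 UMIs. Periocular mesenchyme-like cells had 10.2 CPM (8.92 to 11.7) and 8.79 CPM (7.71 to 9.99), which was 42.8% and 48.7% of all *Tyro3* UMIs. Close to them, retinal progenitor-like cells had 225 control and 182 mutant *Tyro3* UMIs, 11.6 CPM (10.1 to 13.2) and 9.52 CPM (8.18 to 11). Macrophage-like cells had 3 and 1 *Tyro3* UMIs. Neurogenic precursor-like cells, the next step of the neural lineage, had less *Tyro3*, at 4.19 CPM (2.40 to 6.81) and 1.10 CPM (0.36 to 2.58).

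*Itgb5* was highest in macrophage-like cells, at 85.1 CPM (72.1 to 99.8) and 107 CPM (92.2 to 123), and surface ectoderm-like, periocular mesenchyme-like and RPE-like cells were the next 3 classes in both libraries. The mesenchyme had 60.5 CPM (57.3 to 63.9) and 56.5 CPM (53.7 to 59.4), and the surface ectoderm 62.2 CPM (44.5 to 84.7) and 36.8 CPM (22.8 to 56.2), above the mesenchyme in the control and below it in the mutant library, with surface ectoderm intervals that overlapped those of RPE-like cells in both. A drop of the control intervals separated the RPE-like cells from the neurogenic precursor-like cells, at 16.2 CPM (12.5 to 20.8), and retinal progenitor-like cells lay lower at 6.66 CPM. *Itgav* was more even, between 0.24 and 19.8 CPM in the control library, and each class in its control order overlapped the next, apart from the last step, from retinal ganglion cell-like to red blood cell-like cells. Its highest values were in Schwann or neural crest-like cells, on 6 and 13 UMIs, and in surface ectoderm-like cells, on 11 and 9 UMIs.

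**Figure D4:**
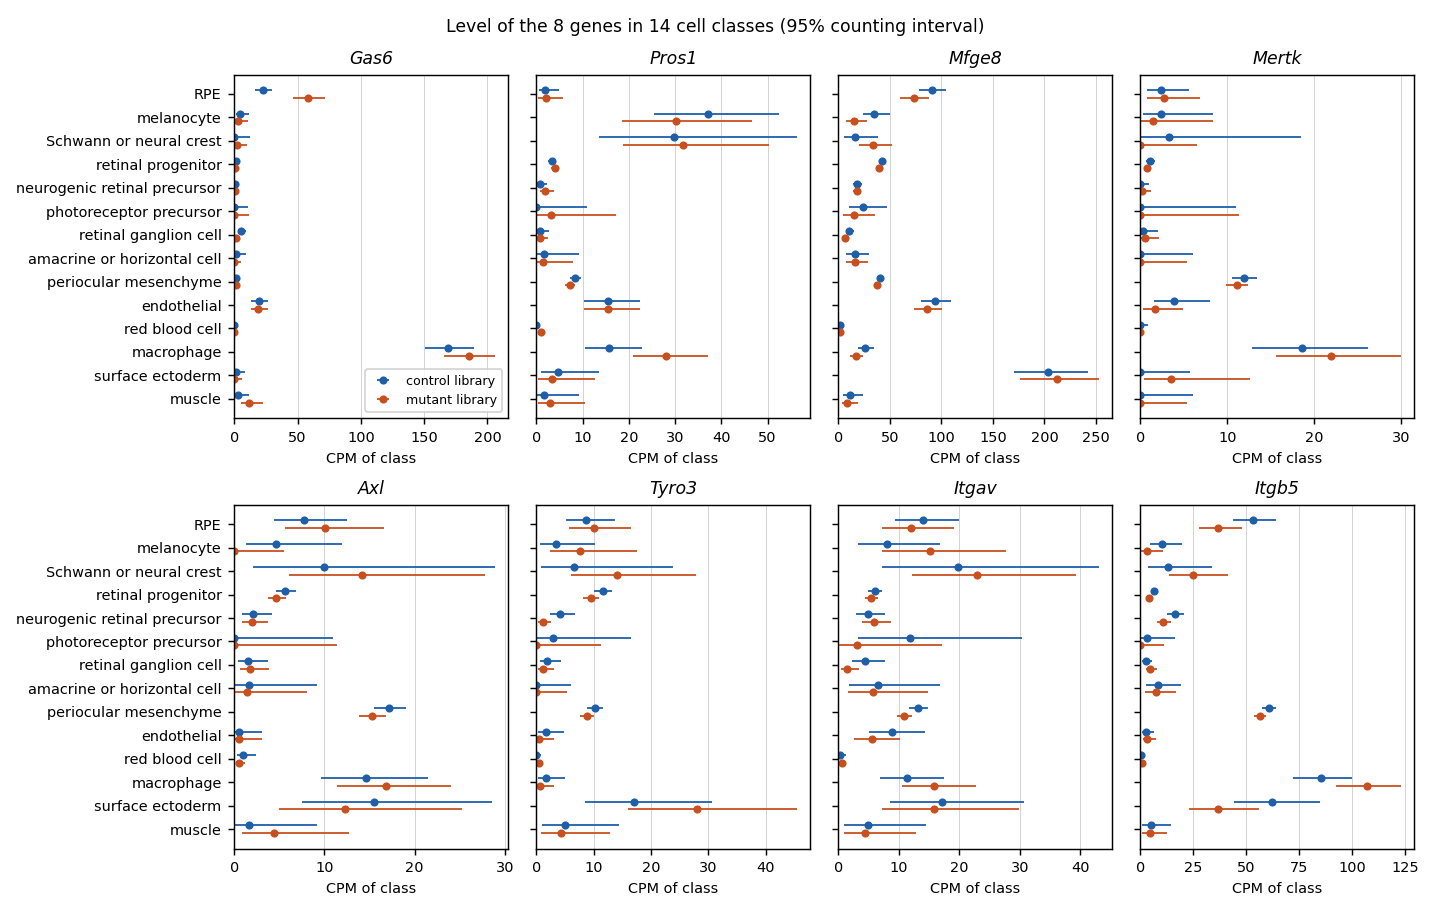
Level of each of the 8 genes in 14 cell classes, in CPM of the class on a linear axis that starts at 0 and differs between panels, with 95% Poisson intervals for the control (blue) and mutant (orange) library. *Gas6* peaks in macrophages near 169 and 185 CPM, *Mfge8* in surface ectoderm near 204 and 212 CPM and *Pros1* in melanocytes and Schwann or neural crest cells. For *Pros1*, macrophages come close to these in the mutant library.

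The periocular mesenchyme-like class held 7 clusters, and the receptors differed among them. In the control library *Mertk* ranged from 6.77 CPM (3.61 to 11.6) in a cluster led by *Fmo1* and *Spp1* to 20.3 CPM (15 to 26.8) in a cluster led by *Col9a3* and *Cldn11*, and in the mutant library the same clusters gave 7.39 CPM and 16.8 CPM. *Axl* was highest in a cluster led by *Meox1*, *Msc* and *Scx*, genes of tendon and muscle connective tissue, at 28.7 CPM (22.2 to 36.6) and 24.0 CPM (19.2 to 29.6), and lowest in a cluster of mitotic genes, at 13.9 CPM (10.9 to 17.5) and 10.2 CPM (7.78 to 13.1). *Itgb5* was highest in a cluster led by *Osr2* and *Foxl2*, at 92.3 CPM (79.2 to 107) and 75.5 CPM (64.7 to 87.6). The highest cluster of each of these 3 genes was the same in both libraries. That of *Tyro3* was not. The cluster led by *Meox1*, *Msc* and *Scx* was its highest in the control library, at 12.8 CPM (8.58 to 18.4) on 29 UMIs. In the mutant library the same cluster was its lowest, at 4.69 CPM (2.73 to 7.51) on 17 UMIs. *Mfge8* ranged from 37.7 to 46.4 CPM over the 7 clusters in the control library and from 31.3 to 64.1 CPM in the mutant library.

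For each gene the other genes whose level was most like it were sought over 28 points, 14 classes in 2 libraries, as Pearson's r of log2(CPM + 1) among 12388 genes with at least 200 UMIs. Points of the 2 libraries in 1 class repeat the same pattern and are not independent, so r is a description. *Gas6* was most like *Cd79b*, *Erap1* and *Fcer1g*, the last a signalling chain of Fc receptors, at r between 0.84 and 0.88. *Pros1* was most like *Arpc1b*, *Kctd12* and *Ednrb*, the last the endothelin receptor of melanoblasts and enteric neural crest, at r between 0.90 and 0.93. *Mfge8* was most like *Chmp2b*, *Atox1* and *E030030I06Rik*, with r between 0.86 and 0.92. *Mertk* was most like *Tec*, *Arsb* and *Spp1* (0.84 to 0.89), and *Axl* most like *Sh3bp1*, *Myof* and *Egr1* (0.79 to 0.86). *Tyro3* was most like *Dzip1l*, *Fgfr3* and *Tcf7l1*, the latter a repressor of Wnt targets, with r between 0.84 and 0.92. *Itgav* was most like *Chid1*, *Map3k1* and *Tmem219* (0.89 to 0.91), and *Itgb5* most like *Cstb*, *Sdc4* and *Tns3* (0.82 each). Among the 8 themselves, *Axl* and *Itgb5* were the most alike pair at r = 0.89, *Itgav* and *Itgb5* gave 0.71, and *Gas6* gave 0.59 with *Mertk*, 0.32 with *Axl* and -0.04 with *Tyro3*.

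The other genes of the pathway were counted in 8 lists of 60 genes, of which 40 had enough UMIs in the RPE-like cells. None passed upward and 3 passed downward, 7.5% against 4.99% of all genes, and the median log2 ratio was -0.15, against -0.03 over all genes. Of the 6 genes for signals of recognition 2 passed downward and the other 4 lay above 0 without passing, with a list median of 0.11. *Sirpa*, the receptor of the do-not-eat-me signal CD47, had 77 control and 36 mutant UMIs, a log2 ratio of -0.60 (-1.23 to -0.03), and *Atp11a*, a flippase that keeps phosphatidylserine inside, had 86 and 39 UMIs, -0.64 (-1.25 to -0.10). *Cd47* itself had 104 and 90 UMIs, 0.27 (-0.15 to 0.69). *Adam10*, a protease that sheds surface receptors, had 124 and 56 UMIs, -0.65 (-1.15 to -0.20), and *Adam17*, the sheddase best known for MERTK, 50 and 36 UMIs, 0.02 (-0.66 to 0.65).

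None of the 12 counted genes of the phagosome and LC3-associated phagocytosis passed the fold, but 10 of them, 83.3%, were below 0, against 53.8% of all genes in these cells. Their median was -0.40, and 4 of the 12 intervals, 33.3%, lay below 0, against 8.13% of all genes. The 4 were *Ctsd*, *Map1lc3a*, *Map1lc3b* and *Lamp2*, with between 389 and 2146 control UMIs. Whether an interval excludes 0 depends on the number of UMIs. All genes were not matched to the list in UMIs, so these shares do not set the list apart. *Ctsd*, a lysosomal protease, had 2146 and 1118 UMIs, -0.46 (-0.57 to -0.36), and *Map1lc3a* 605 and 325 UMIs, -0.42 (-0.62 to -0.22). *Lamp1*, of the same compartment, had 818 and 608 UMIs, 0.05 (-0.10 to 0.20). The 9 counted genes of the engulfment machinery, such as *Rac1* at -0.05 (-0.40 to 0.29) and *Cdc42* at 0.06 (-0.10 to 0.23), had a median of 0.06 and none passed. Among other bridging molecules *Thbs1*, thrombospondin, had 70 and 73 UMIs, 0.54 (0.05 to 1.03), below the fold. Of the vitamin K-dependent carboxylation genes that GAS6 and protein S require, *Vkorc1* had 181 and 90 UMIs, -0.52 (-0.91 to -0.16), and *Ggcx* 4 and 8 UMIs. Of the 12 other engulfment receptors 3 had enough UMIs and none passed, and *Timd4*, *Stab1*, *Stab2*, *Cd36*, *Megf10*, *Cd300lf* and *Havcr1* were at 0 in both libraries. *Itgb1* had 169 and 128 UMIs, 0.08 (-0.27 to 0.42), and *Itgb3*, the other partner of alpha v in MFGE8 binding, had 0 and 1.

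**Figure D5:**
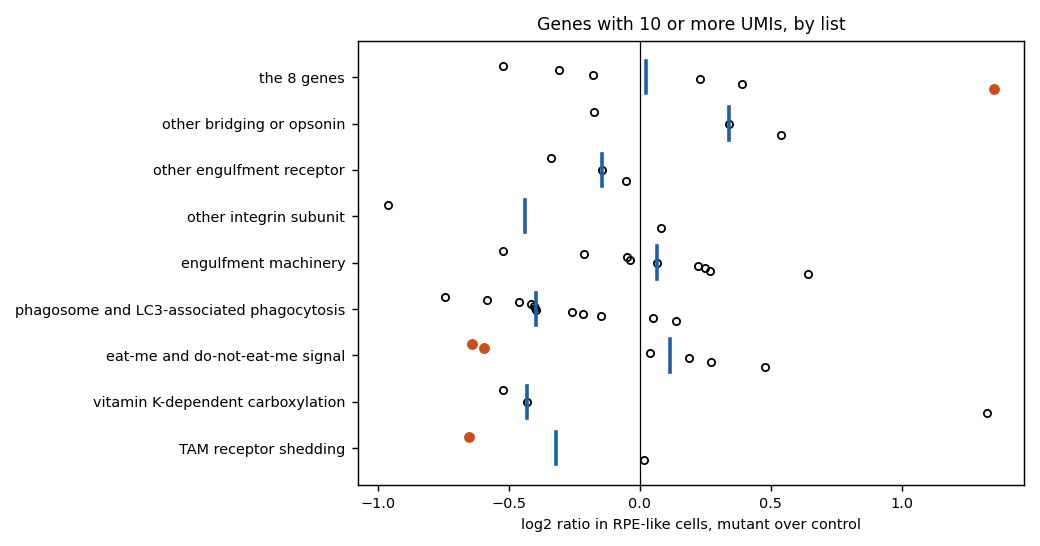
Log2 ratio of mutant over control in RPE-like cells for each gene with 10 or more UMIs, by list, with the list's median as a blue bar and filled orange points for genes past 1.5-fold with an interval that excludes 0. *Gas6* is the one filled point on the right, at 1.35, and 10 of 12 phagosome genes lie left of 0.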

How the data were processed

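The authors counted UMIs per gene and cell barcode with Cell Ranger 7.1.0 on mm10 (the submitters' notes also name Seurat 4.1.1), and the deposited values are raw counts for called cells, 63483835 control UMIs and 75228861 mutant UMIs. Whether intronic reads were counted is not given in the sources used here. Barcodes were kept at 200 or more genes and at most 15% of UMIs from mitochondrial genes, less 51 control and 74 mutant doublets called by Scrublet (scanpy 1.11.5), 0.924% and 1.16%. The limit of 2000 UMIs per cell in the study's methods was an alternative only, since 4278 control and 5204 mutant cells lie above it. Libraries were integrated and clustered in Seurat 5.3.0 (2000 variable features less 16 listed genes, 30 principal components, resolution 0.8). Clusters were named from markers with thresholds chosen with the clusters in view, so classes may differ from the study's.

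UMIs were summed per class and library, and log2 ratios had 1 UMI added to each sum. Intervals were exact Poisson (CPM), Clopper-Pearson (shares) and conditional binomial (ratios), in scipy 1.17.1. The ratio was also run on simulated Poisson counts. These follow the error that the intervals assume, so the run does not cover spread between cells. The genes named were the 8 genes, the listed genes past the fold in RPE-like cells, the 3 genes most like each of the 8, and, chosen after their values were seen, a few more of each list. The 8 genes and the lists were chosen with earlier results of these data known. Promoters came from RefSeq, where all 8 genes matched.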

Additional observations from a re-analysis of the deposited data

Results flagged for a closer look

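*Gas6* passed the fold in opposite directions in 2 classes that both descend from the eye field. It was higher in the mutant library in RPE-like cells, with a log2 ratio of 1.35, and lower in retinal ganglion cell-like cells, with a log2 ratio of -1.99. The difference between the classes was not tested, since there was 1 library per genotype, and the ganglion cell value rests on 15 control and 4 mutant UMIs.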

How the results depend on the processing

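The direction of *Gas6* in RPE-like cells was the same under every alternative run. Its log2 ratio was 0.79 with a limit of 2000 UMIs per cell (3 and 4 UMIs left) and 0.75 in cells of female embryos, where in both cases 0 genes passed the fold. The difference of mean log2(counts per 10000 + 1) was 0.22, on a scale that low counts compress. In cells of male embryos 4 genes passed, *Gas6*, *Mfge8* at -0.73, *Axl* at 2.11 (2 and 10 UMIs) and *Itgb5* at -1.10. *Itgb5* was 0.24 with the limit of 2000 UMIs and 0.30 in cells of female embryos, where *Tyro3* was 1.53 and *Itgav* 1.94, on 5 mutant UMIs each. The cause of these shifts was not tested, and these subsets hold few UMIs. Among the ratios past the fold, none changed sign in RPE-like cells and 6 recomputed values did in other classes: *Mfge8* in melanocyte-like cells was 0.59 with a limit of 20000 UMIs, which put 102 control and 114 mutant cells in that class, *Itgb5* in retinal progenitor-like cells 0.17 with the limit of 2000 UMIs, *Tyro3* in neurogenic precursor-like cells 0.33 in female embryos, and *Pros1* in red blood cell-like cells -0.24, -0.28 and -0.10 with limits of 2000 and 20000 UMIs and in male embryos. Counting ratios that had not passed as well, 12 of 125 recomputed values changed sign in RPE-like cells (6 of the 8 genes, not *Gas6* or *Mfge8*) and 94 of 912 in other classes. Of 109 planned recomputations of the RPE ratios 99 stayed within the interval of the reported value, as did 862 of the 912 in other classes. Of the 32 shares of RPE-like cells recomputed without thinning or at 1000 UMIs, 14 left the interval of the share at 3000 UMIs. Alternatives chosen after seeing the data, cells without macrophage marker UMIs and cells of at least 3000 UMIs, kept all 16 RPE ratios within the reported intervals. No paired analysis was possible because each genotype had 1 library.

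*Pros1* and *Mertk* had under 10 UMIs in RPE-like cells. With 1 library per genotype no interval covers variation between embryos, dissociations or library preparations.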
